A study of Mus musculus with 2 samples.

Results

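The genes described here are those of the lysosome and of the vacuolar ATPase (V-ATPase), in mature oocytes of female mice kept under a slimming regime or as controls. They comprise 28 listed cathepsins, other hydrolases and cofactors and membrane proteins, together with all 26 genes of the deposited table whose symbol starts with Atp6v or Atp6ap. That makes 54 of 36227 genes, picked out by symbol. Female ICR mice, an outbred strain, became obese by 12 weeks of age in standard housing. For the next 4 weeks they lived in enriched-environment cages (slimming) or stayed in normal cages (control, labelled as fed a standard diet). Naturally ovulated oocytes at metaphase II were collected at 16 weeks from 3 mice per group. Each mouse gave 3 oocytes, and all 9 from a group went into a single lysis tube and became 1 library. With 1 pooled library per group the groups could not be tested, and every difference given is one between 2 libraries without a replicate.

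The lysosome is the acidic organelle in which proteins, glycans and lipids are broken down. Its hydrolases, among them the cathepsins (proteases), work at low pH, and its membrane carries heavily glycosylated proteins such as LAMP1. The V-ATPase pumps protons into it: the cytosolic V1 sector hydrolyses ATP and the V0 sector in the membrane moves the protons. The factors TFEB, TFE3 and MITF bind E-boxes (CACGTG) in promoters of many of these genes, and in the egg the lysosome takes part in clearing maternal proteins after fertilization.

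Sequencing depth was 20947962 counts for slimming against 20242289 for control. Levels are counts per 1000000 counts of the library (CPM), and where a gene had 0 counts its level could still reach 3 counts, which is 0.143 CPM (slimming) or 0.148 CPM (control). Oocyte markers were high in both libraries, led by Gdf9, H1foo and Mos, and all 10 on the list had counts. The 3 zona pellucida genes among them, named after their values were seen, had higher values after slimming: Zp3 2.05-fold, Zp1 1.92-fold and Zp2 1.75-fold. The other 7 lay between -0.12 and 0.25 on the log2 scale, and the part of these differences in the lysosomal values was not tested. Genes reaching 10 CPM in either library are called expressed below, and there were 5714. Of these 4.67% lay 2-fold or more apart, 2.73% with the higher value after slimming and 1.94% with the lower one.

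Of the 54 genes, 26 were expressed, 22 had counts but stayed below 10 CPM, and 6 had no count in either library (Ctsf, Ctss, Gusb, Atp6v0d2, Atp6v1b1 and Atp6v1g3). Their sum was 4048 CPM for slimming against 3512 CPM for control. Among the 26 expressed members, 2 were at least 2-fold higher in the slimming library (Neu1 and Atp6v0e2) and 0 were lower, beside the 2.73% and 1.94% of all expressed genes. At a limit of 1.5-fold, 6 were higher and 2 lower, where 10.3% and 7.16% of all expressed genes were. The median log2 ratio of slimming over control was 0.20 for the members (order-statistic interval -0.12 to 0.49) and 0.02 for all expressed genes. The ratio was above equality for 18 of the 26, and for 51.4% of all expressed genes. For 16 members the 95% counting interval of the ratio lay above equality (37.7% of all expressed genes) and for 8 below it (35.1%). These intervals cover counting error only, and PCR copies of 1 molecule are counted as if independent. The authors' deposited table marks 23 of the 48 members with counts as different (p-value under 0.001, from the reads of the 2 libraries). Of all genes with counts it marks 30.4%. These shares are not matched for level: 26 of the 48 members were expressed, against 5714 of the 18017 genes with counts. On the table's own scale 17 of the 23 were under 2-fold apart. All expressed members other than Neu1 and Atp6v0e2 lay within 2-fold.

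**Figure D1:**
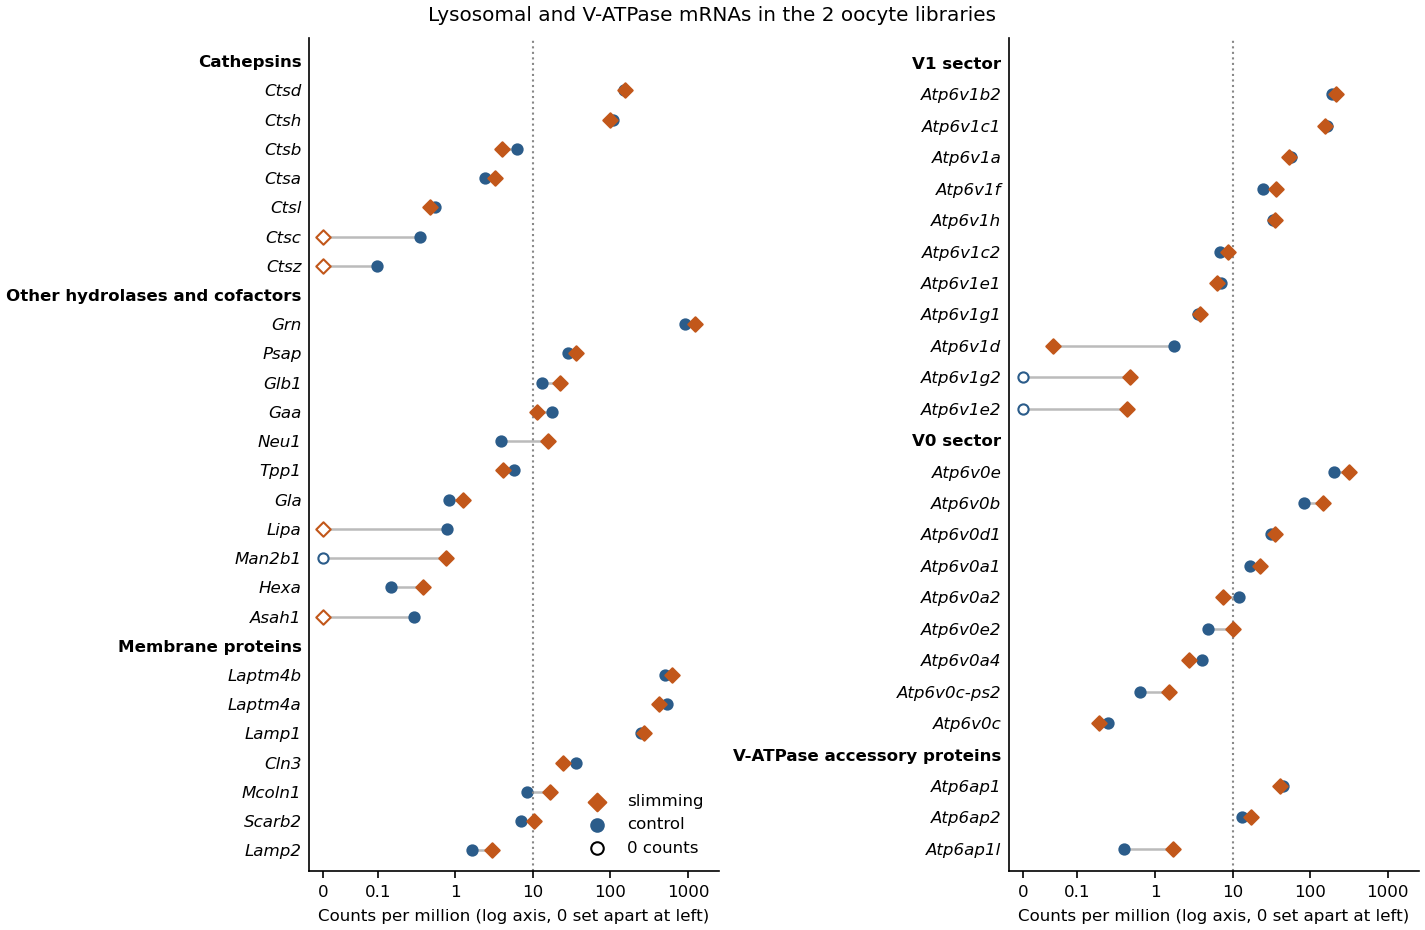
Counts per 1000000 (CPM, log axis) of the 48 members with counts, in the slimming library (diamonds) and the control library (circles), by class, with open symbols for 0 counts and a dotted line at 10 CPM. Grn stands highest at 1222 and 925 CPM, and the wide gaps lie at or near 0 counts apart from Neu1.

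Promoters of the members hold the E-box of these factors more often than other promoters do, and it is shown here for expressed members that were higher, equal and lower. RefSeq windows of build GRCm38.p6, from 250 bases before to 50 after a gene's start, were found for 42 of the 54 members. The deposited table was made on mm9 and has no coordinates. CACGTG was in 29.2% of the members' 48 windows and in 7.15% of all 32851 windows (10.2% for expressed genes), and its extension TCACGTGA in 16.7%, 0.974% and 1.90%. These motifs are palindromes, so both strands are covered, and the longer ones contain the shorter. The sequences below are promoter windows around the matches of the 6 expressed members with TCACGTGA and of Atp6v0b, 5′ to 3′ on the gene's strand, with each CACGTG or TCACGTGA in capitals, in Cln3 together with the adjoining G and C. Ctsd has a further CACGTG outside the stretch shown. They lie at chr8:3500426-3500501 (plus strand, Mcoln1), chr4:117887320-117887387 (minus, Atp6v0b), chr17:26676377-26676426 (plus, Atp6v0e), chr8:105566040-105566089 (minus, Atp6v0d1), chr7:142387898-142387947 (minus, Ctsd), chr16:44139363-44139412 (minus, Atp6v1a) and chr7:126583330-126583407 (minus, Cln3).
Mcoln1: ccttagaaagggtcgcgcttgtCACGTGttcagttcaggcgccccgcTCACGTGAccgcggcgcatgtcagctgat
Atp6v0b: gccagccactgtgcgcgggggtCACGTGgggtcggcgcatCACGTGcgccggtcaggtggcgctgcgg
Atp6v0e: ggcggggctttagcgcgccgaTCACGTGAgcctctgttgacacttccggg
Atp6v0d1: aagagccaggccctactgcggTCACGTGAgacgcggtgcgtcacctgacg
Ctsd: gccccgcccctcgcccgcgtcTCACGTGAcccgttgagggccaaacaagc
Atp6v1a: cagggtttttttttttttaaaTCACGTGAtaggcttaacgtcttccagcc
Cln3: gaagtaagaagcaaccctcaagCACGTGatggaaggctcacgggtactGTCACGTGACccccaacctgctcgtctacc

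Windows were found for 20 of the 26 expressed members. Of the 10 expressed members with CACGTG in a window, 7 were above equality and 3 below, and of the 10 without it 8 and 2. Over all expressed genes with CACGTG, 257 of 535 were above equality. The printed sequences leave out some expressed members with CACGTG. In the order shown, their log2 ratios were 0.93, 0.82, 0.62, 0.17, 0.01, -0.13 and -0.58. The median was 0.12 for the 10 expressed members with CACGTG in a window and 0.38 for the 10 without, and both members past 2-fold, Neu1 and Atp6v0e2, were among those without. Over all expressed genes with a window, the median was -0.02 for 535 genes with CACGTG and 0.02 for 3852 without. For TCACGTGA it was -0.03 for 102 genes and 0.01 for 4285. A match is a string of letters and not a measured binding site.

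Progranulin mRNA was the most abundant of the group. Grn (ENSMUSG00000034708, chromosome 11), a secreted and lysosomal glycoprotein that is cut into granulins, had 25607 counts after slimming against 18729 for control. That is 1222 against 925 CPM, 1.29-fold higher in the slimming library (log2 0.37, interval 0.34 to 0.40), and 9.70% of the genes above 300 CPM were as far apart in that direction. Grn alone held 30.2% of the members' counts after slimming and 26.3% for control. Without it the members' sum was 2825 against 2587 CPM, still higher in the slimming library. Psap, the precursor of the saposins that help hydrolases reach their lipid substrates, had 36.2 against 28.3 CPM, 1.25-fold higher (interval 0.16 to 0.48 in log2).

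The widest gap among expressed members was that of Neu1 (ENSMUSG00000007038, chromosome 17), the lysosomal sialidase that takes sialic acid off glycoproteins and glycolipids. It had 324 counts after slimming against 78 for control, or 15.5 against 3.85 CPM. The ratio was 3.91-fold (log2 1.97, interval 1.61 to 2.35), the 15th highest of the 5714 expressed genes. Among the 2231 genes whose higher library held 10 to 30 CPM, 0.583% were as far apart in that direction. Neu1 was also the 1 expressed member whose whole counting interval lay beyond 2-fold, which 1.37% of all expressed genes did on the higher and 0.998% on the lower side. Its exons overlap no other annotated gene, and no near-identical copy was found in the annotated transcripts.

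NEU1 works in a complex with beta-galactosidase (GLB1) and the protective protein cathepsin A (CTSA), and the mRNAs of these partners differed less. Glb1 had 462 against 269 counts, 22.1 against 13.3 CPM, 1.62-fold higher in the slimming library (log2 0.70, interval 0.48 to 0.92). It shares 165 exon bases with Tmppe, itself at 75 against 22 counts, so with the use of strand not stated part of its reads could belong to either gene. Ctsa had 68 against 49 counts, a log2 ratio of 0.39 whose interval (-0.16 to 0.95) includes equality. The 3 mRNAs of the complex thus had point values on the same side, and only those of Neu1 and Glb1 were apart beyond counting error.

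Gaa, the acid alpha-glucosidase that degrades glycogen, went the other way. It had 236 counts after slimming against 358 for control, 11.3 against 17.7 CPM, 1.60-fold lower (log2 -0.68, interval -0.93 to -0.44). Among genes of its level 8.38% were as far apart on the lower side. Tpp1, a tripeptidyl peptidase, stayed below 10 CPM at 4.11 against 5.63 CPM (log2 -0.49, interval -0.91 to -0.07). Gla, the alpha-galactosidase, had 26 against 17 counts, and Hexa, the alpha subunit of beta-hexosaminidase, had 8 against 3. Neither of the last 2 was apart beyond counting error.

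Cathepsin mRNA was nearly equal in the libraries where it reached 10 CPM. Ctsd (ENSMUSG00000007891, chromosome 7), the main aspartic protease of the lysosome, had 3210 against 3016 counts, 153 against 149 CPM (log2 0.01, interval -0.06 to 0.08). It shares 808 exon bases on the same strand with Gm49369, a protein-coding gene that is not among the deposited genes. Ctsh, an aminopeptidase of the papain family, had 98.0 against 107 CPM (log2 -0.15, interval -0.24 to -0.07). These were the 2 expressed cathepsins of 9 listed. Ctsb, a cysteine protease, was lower in the slimming library below the 10 CPM limit, at 84 against 126 counts (1.58-fold, interval -1.08 to -0.26 in log2). It shares 774 exon bases with Fdft1, a gene of sterol synthesis with 184 against 156 counts. Ctsl had 10 against 11 counts.

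A small set of hydrolases had counts in 1 library only. Lipa, the acid lipase that frees cholesterol from its esters, had 0 counts after slimming against 16 for control. Ctsc, an activator of immune serine proteases, had 0 against 7, Asah1 (acid ceramidase) 0 against 6 and Ctsz 0 against 2. Man2b1, the acid alpha-mannosidase, went the opposite way with 16 against 0 counts. With the 0 set to a floor of 3 counts, Lipa was 5.64-fold lower, Ctsc 2.47-fold lower, Asah1 2.12-fold lower and Man2b1 5.04-fold higher. The counting intervals allow smaller gaps, with nearest limits in log2 of -2.03, -0.61, -0.32 and 1.87 in that order. Values this low are often 2-fold apart here: of the 7007 genes with counts but under 1 CPM in both libraries, 70.4% had such a ratio. Ratios as far from equality as those of Lipa and Man2b1 were less common. Of these genes 0.614% were as far below control as Lipa and 0.514% as far above it as Man2b1. For Ctsc and Asah1 the shares on the lower side were 4.88% and 5.91%.

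Some markers of immune cells also had counts in the control library alone, and others were near equal. Of 18 markers of macrophages and other immune cells, 13 had no count in the slimming library and 2 had none in the control library. Those 2 had no count in either library, so 16 markers had counts. Of all genes with counts, 12.1% were at 0 after slimming and 8.61% for control. Below 1 CPM, where many of these markers lay, the shares were 29.8% and 21.4%. Among the 7 markers that summed to 10 counts or more, 3 lay 2-fold or more below control and 0 above it, and C1qb, named after its values were seen, had 38 counts in each library. Their sum was 27.6 against 45.9 CPM, most of it from H2-Aa (17.9 against 27.2 CPM), with Laptm5 and Cd68 next at 4.11 against 3.71 and 3.77 against 5.09 CPM. Fcer1g and Tyrobp, signalling partners of immune receptors, had 0 counts after slimming against 62 and 57 for control, and 1.85% of all genes of their level were at 0 after slimming. Among 18 cumulus and granulosa markers, 13 were at 0 after slimming and 8 for control, and these 8 were at 0 in both libraries. Of the 7 that summed to 10 counts or more, 4 lay 2-fold or more below control and 0 above it. Inha had 0 against 63 counts, and Hsd3b1, named after its values were seen, had 1 against 72. The sum of 533 CPM in each library came mostly from Serpine2 (491 against 475 CPM), followed by Cyp19a1 and Nr5a2. Of 8 oviduct markers, 5 were at 0 after slimming and 2 for control, and these 2 were at 0 in both libraries. Of the 3 that summed to 10 counts or more, 2 lay 2-fold or more below control and 0 above it. The sum was 5.20 against 12.4 CPM, led by Tppp3, Epcam and Krt8. Their part in the lysosomal values was not tested, and in such pooled samples fewer cells of a type and less RNA per cell cannot be told apart.

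**Figure D2:**
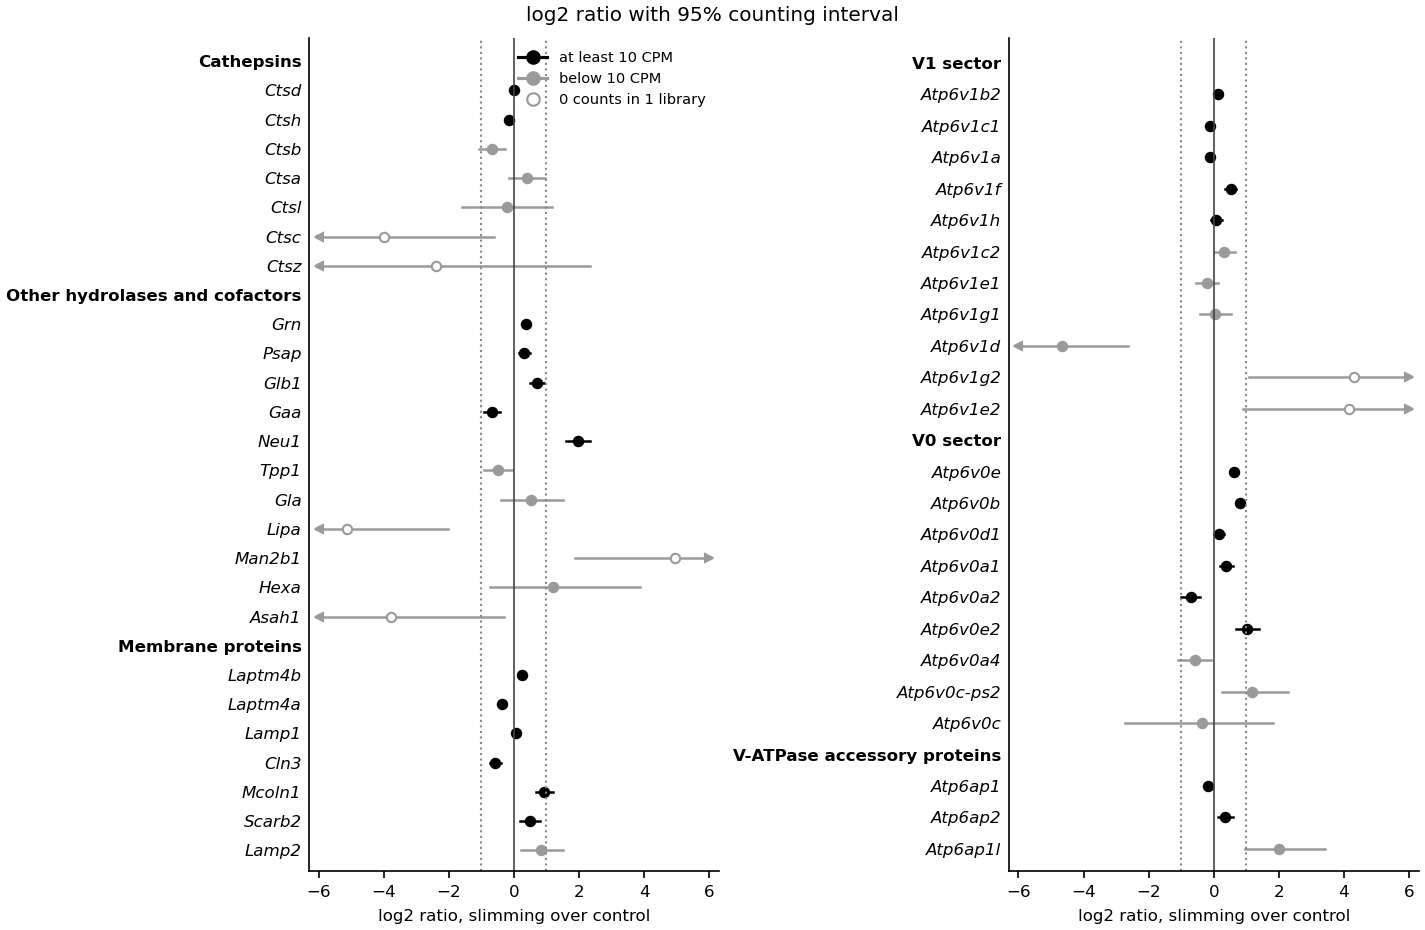
The log2 ratio of slimming over control with its 95% counting interval for the 48 members with counts, black for expressed members and grey below 10 CPM, with open symbols for a count of 0 in 1 library, arrowheads where an interval runs past the axis and dotted lines at 2-fold. Neu1 at 1.97 lies apart from the other expressed members, which range from -0.71 to 1.03, and the open symbols lie on both sides.

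The abundant membrane proteins were LAPTM4A, LAPTM4B and LAMP1. Laptm4b, a membrane protein of late endosomes and lysosomes, had 12868 counts after slimming against 10327 for control, 614 against 510 CPM (1.18-fold higher, log2 0.24, interval 0.20 to 0.27). Its relative Laptm4a had 8831 against 10880 counts, 422 against 537 CPM, and was 1.30-fold lower (log2 -0.38, interval -0.42 to -0.34). The 2 paralogs therefore stood in opposite order in the 2 libraries, also per transcript length, with 323 and 238 CPM per kilobase after slimming against 268 and 303 for control. A processed pseudogene, Gm6705, matches Laptm4b at 96.6% over 685 bases. Lamp1 (ENSMUSG00000031447, chromosome 8), the main glycoprotein of the lysosomal membrane, had 269 against 250 CPM (log2 0.07). It shares 249 exon bases with Grtp1, at 2454 against 2528 counts.

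Among the channels and receptors of the membrane, Mcoln1 (ENSMUSG00000004567, chromosome 8) differed most. It encodes mucolipin 1, the channel that releases calcium from lysosomes, and had 346 against 171 counts, 16.5 against 8.45 CPM. At 1.91-fold higher in the slimming library (log2 0.93, interval 0.67 to 1.21) it fell just short of 2-fold, and 5.96% of the genes of its level were as far apart in that direction. Its transcripts hold stretches of at least 95% identity with several other annotated transcripts. Scarb2, the receptor that carries glucocerebrosidase to the lysosome, had 10.2 against 7.06 CPM (1.41-fold higher, interval 0.18 to 0.81 in log2). Lamp2 was below the 10 CPM limit at 63 against 33 counts (log2 0.84, interval 0.22 to 1.51). Cln3, the membrane protein lost in juvenile Batten disease, was lower in the slimming library, at 24.4 against 35.6 CPM (1.49-fold, log2 -0.58, interval -0.74 to -0.41). Of the 6 expressed membrane proteins 4 were thus higher and 2 lower, with a median log2 ratio of 0.15. Among the 4 that reached 30 CPM, 2 were higher and 2 lower and the median was -0.15.

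The V0 sector of the proton pump was the class with the highest median. Of its 6 expressed members 5 were higher in the slimming library and 1 lower, where 51.4% of all expressed genes were above equality. The V0 median log2 ratio was 0.50 against 0.02 for all expressed genes. Its order-statistic interval, -0.71 to 1.03, spans the full range of the 6. With no filter the V0 median was 0.38 over 9 genes, close to the 0.37 of the other hydrolases and cofactors. Atp6v0e (ENSMUSG00000015575, chromosome 17), the small subunit e, had 6633 against 4079 counts, 317 against 202 CPM (1.54-fold higher, log2 0.62, interval 0.56 to 0.68). Atp6v0b (ENSMUSG00000033379, chromosome 4), a subunit of the proteolipid ring, had 3101 against 1660 counts, 148 against 82.0 CPM (1.77-fold, log2 0.82, interval 0.73 to 0.91). Among genes of their levels, 2.66% and 2.42% were as far apart in that direction. Atp6v0b shares 243 exon bases with the antisense gene Gm12841, which had 81 against 44 counts.

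Atp6v0e2, the second isoform of subunit e, was the other expressed member past 2-fold. It had 212 against 98 counts, 10.1 against 4.84 CPM, a ratio of 2.04-fold (log2 1.03, interval 0.68 to 1.39), so that it only just met both limits. In its band of 10 to 30 CPM, 4.39% of genes were as far apart in that direction, so a ratio of this size was not rare at this level. Atp6v0d1, the subunit d that joins the sectors, was close to equal at 35.5 against 30.9 CPM (log2 0.17, interval 0.02 to 0.33).

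The isoforms of subunit a, which places the pump in different membranes, did not lie on the same side of equality. Atp6v0a1 had 468 against 339 counts and was 1.30-fold higher in the slimming library (log2 0.38, interval 0.18 to 0.59). Atp6v0a2 had 155 against 240 counts and was 1.64-fold lower (log2 -0.71, interval -1.01 to -0.41). Atp6v0a4, known from the kidney, had 58 against 82 counts below the 10 CPM limit (log2 -0.58). It shares 259 exon bases with D630045J12Rik, at 1443 against 971 counts. In both libraries the order per transcript length was a1, a2, a4, with 5.37, 1.38 and 0.837 CPM per kilobase after slimming against 4.02, 2.22 and 1.22 for control. The distance between a1 and a2 was wider in the slimming library. Tcirg1, which encodes the a3 isoform of osteoclasts and immune cells and lies outside the naming rule, was looked at after its values were seen and had 0 against 8 counts.

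**Figure D3:**
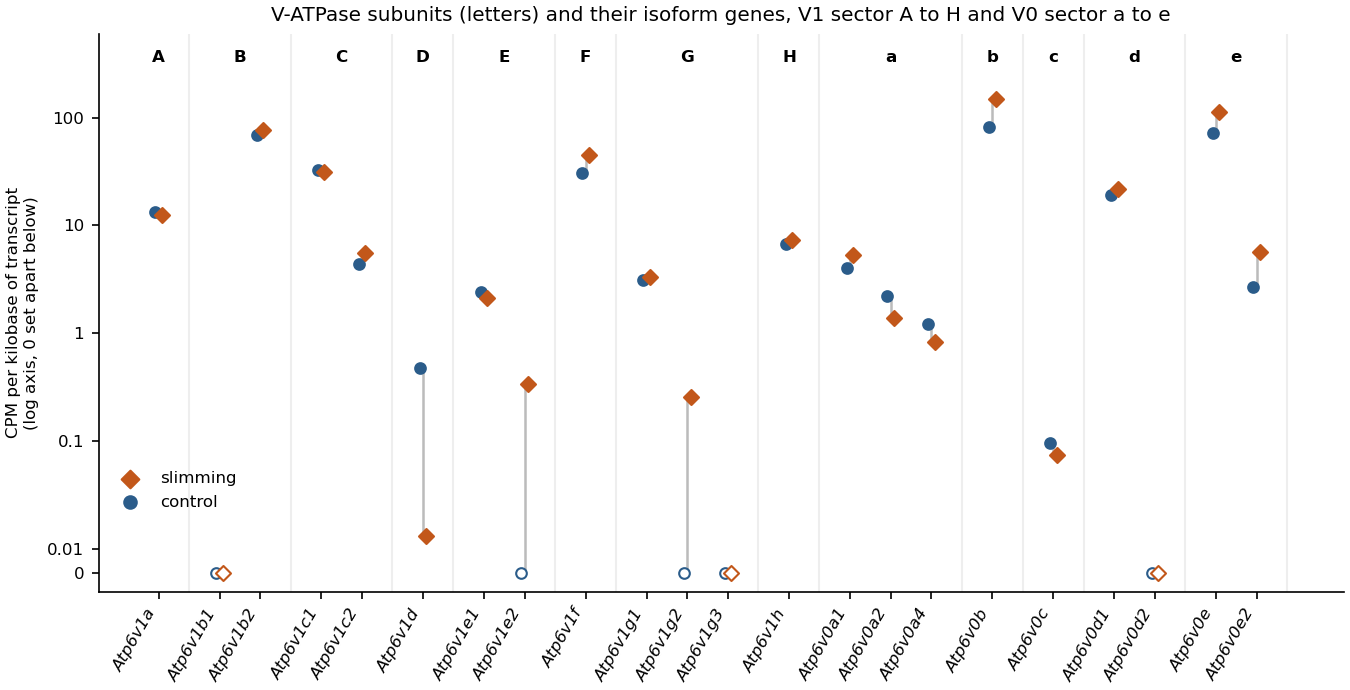
Level of each V-ATPase isoform gene in CPM per kilobase of its longest transcript (log axis, 0 set apart below), grouped by subunit letter, diamonds for the slimming and circles for the control library. Within each subunit with more than 1 isoform the same isoform was the highest in both libraries, for example Atp6v1b2 at 76.2 and 68.3 with Atp6v1b1 at 0.

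The V1 sector was nearly level between the libraries. Its 5 expressed members had a median log2 ratio of 0.08 and none was 1.5-fold apart. Atp6v1a, the catalytic subunit A, had 1106 against 1147 counts, 52.8 against 56.7 CPM (log2 -0.13, interval -0.25 to -0.01). Its partner in the ATP-hydrolysing ring, Atp6v1b2, had 4509 against 3906 counts, 215 against 193 CPM (log2 0.13, interval 0.06 to 0.19). Atp6v1c1, a stalk subunit that helps to join V1 to V0, had 153 against 163 CPM (log2 -0.12), and the regulatory subunit Atp6v1h 35.4 against 32.7 CPM (log2 0.08, interval -0.07 to 0.24). Atp6v1f, a small subunit of the central stalk, differed most of these, at 36.0 against 24.7 CPM (1.43-fold higher, interval 0.35 to 0.68 in log2). A pseudogene, AC169506.3, matches it at 98.5% over 202 bases. The difference between the V0 and V1 medians was not tested.

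Other V1 subunits were measured at few counts. Atp6v1e1 had 131 against 143 counts, Atp6v1c2 183 against 138 and Atp6v1g1 79 against 72, none apart beyond counting error. Atp6v1d, which encodes the rotor subunit D, had 1 count after slimming against 35 for control (log2 -4.65, interval -10.55 to -2.64). It shares no exon with another gene and has no near-identical copy in the annotated transcripts, and 2.27% of the 5296 genes with 1 to 10 CPM in their higher library were as far apart on the lower side. The isoform genes Atp6v1e2 and Atp6v1g2 had 9 and 10 counts after slimming against 0 for control. With the 0 set to a floor of 3 counts they were 2.84-fold and 3.15-fold higher, and their intervals begin at log2 0.9 and 1.08. Of genes with counts but under 1 CPM in both libraries, 2.08% and 1.71% were as far apart in that direction. For 70.4% of such genes the values were at least 2-fold apart. Atp6v1e2 and Atp6v1g2 share 383 and 144 exon bases with genes on the opposite strand.

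The proteolipid subunit c, of which the ring holds several copies, was nearly absent from the counts. Atp6v0c had 4 counts after slimming against 5 for control, or 0.191 and 0.247 CPM, beside 148 and 82.0 CPM for its ring partner Atp6v0b. Its processed pseudogene Atp6v0c-ps2 matches it at 99.7% over 387 bases and had 32 against 13 counts (log2 1.19, interval 0.25 to 2.27). Atp6v1g1 likewise has a pseudogene, Gm13453, that matches at 99.4% over 357 bases and had 8 against 3 counts. How reads with several matches were counted is not stated in the labels or file headers, so the levels of Atp6v0c, Atp6v0c-ps2 and Atp6v1g1 are uncertain.

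Of the accessory proteins, Atp6ap1, which helps to assemble V0, had 853 against 908 counts (log2 -0.17, interval -0.31 to -0.03). Atp6ap2, the prorenin receptor, had 362 against 268 counts and was 1.28-fold higher (log2 0.35, interval 0.12 to 0.59), with a pseudogene, Gm36448, that matches at 98.4% over 438 bases. Atp6ap1l, a relative of Atp6ap1, had 36 against 8 counts, 4.06-fold higher (log2 2.02, interval 0.96 to 3.41) at 1.72 against 0.395 CPM. In its band of 1 to 10 CPM 5.72% of genes were as far apart in that direction, and 33.2% were at least 2-fold apart either way.

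**Figure D4:**
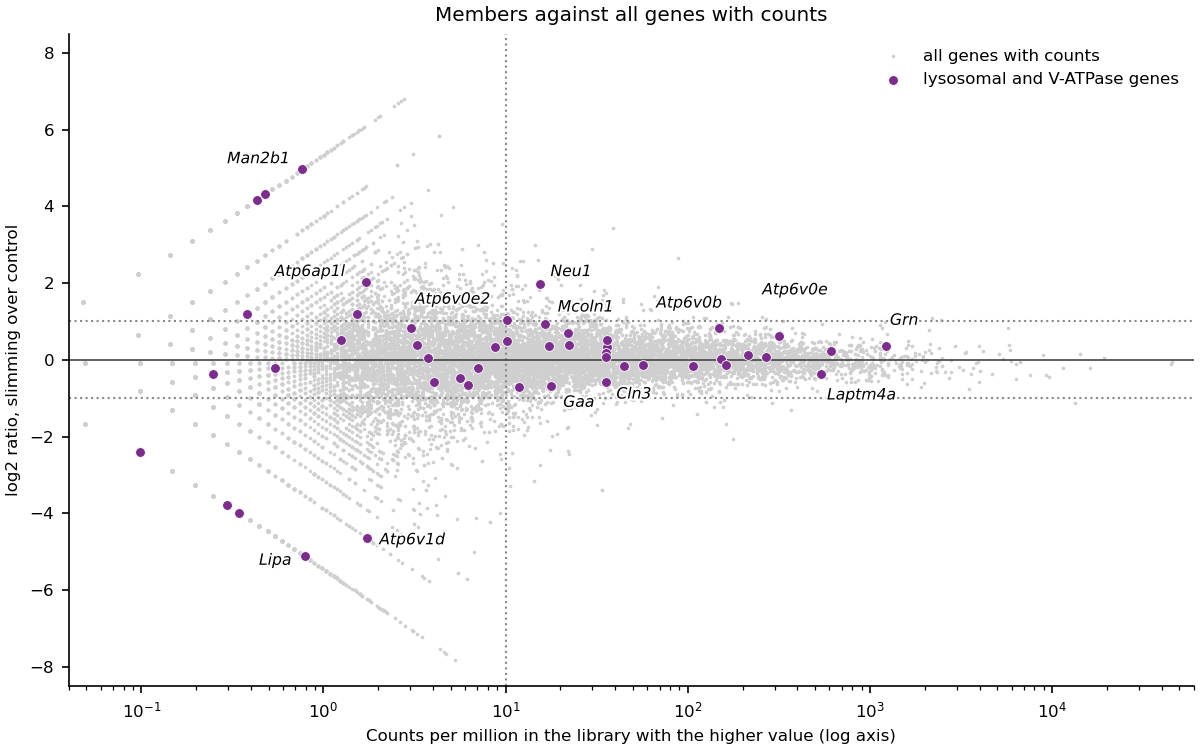
The log2 ratio of slimming over control against the CPM of the library with the higher value (log axis), for all 18017 genes with counts (grey) and the 48 members with counts (purple), with dotted lines at 10 CPM and at 2-fold. The grey cloud widens towards low counts, where Lipa, Man2b1 and Atp6v1d lie, and Neu1 stands at its upper edge.

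Ranked per kilobase of the longest transcript, the members with the highest levels in the slimming library were Grn (522), Laptm4b (323), Laptm4a (238), Atp6v0b (148), Lamp1 (121) and Atp6v0e (113 CPM per kilobase). In the control library the order was Grn (395), Laptm4a (303), Laptm4b (268), Lamp1 (112), Atp6v0b (82.0) and Atp6v0e (71.7). The same 6 genes led both libraries, and 2 neighbouring pairs stood in the other order. Priming on the poly(A) tail favours the 3′ ends of mRNAs, so these levels are a description and not molecule numbers.

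Length also went with the ratio. In the shortest of 5 equal groups of expressed genes by transcript length, up to 1939 nucleotides, the median log2 ratio was 0.17, and the 6 members there had a median of 0.38. In the longest group it was -0.08, with 0 members. With the trend removed in 20 bins of length, the members' median was 0.13, the V0 median stayed at 0.50 and Neu1 at 1.97. Atp6v0b then had 0.59, Atp6v1f 0.23, Lamp1 0.01 and Atp6v0e2 0.93, which left 1 expressed member past 2-fold. Grn moved to 0.3, Laptm4b to 0.14 and Laptm4a to -0.48, each outside its counting interval. With Atp6v0b, Atp6v1f and Lamp1 these were the 6 members that left their intervals.

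The other genes of the lysosome were read from lists with the members taken out. Among 35 other hydrolases and cofactors, 15 were expressed, 7 above and 8 below equality, with a median log2 ratio of 0.00. Creg1, a secreted glycoprotein of endosomes and lysosomes, was 2.02-fold higher at 10.4 against 5.04 CPM, and Idua, the alpha-L-iduronidase, 1.85-fold higher at 178 against 94.1 CPM. Among other lysosomal membrane proteins 8 of 10 expressed genes were above equality with a median of 0.21, led by the proton and potassium channel gene Tmem175 (log2 0.74) and Tmem9b (log2 0.55). None of these 10 was at least 2-fold apart.

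Genes that sort enzymes to the lysosome were close to equal, with 5 of 12 expressed genes above equality and a median of -0.01, which became 0.02 under scaling by total count. The largest differences there were those of Gnptg, a subunit of the enzyme that makes the mannose 6-phosphate tag, at log2 -0.45, and Vps39 of the HOPS tether at 0.40. In the list of V-ATPase assembly 2 of 7 expressed genes were above equality with a median of -0.06, with Rogdi at 0.95 and Oxr1 at -0.17. With no filter, 2 of its 11 genes with counts were higher and 9 lower. Below 10 CPM, Tldc1 had 25 against 150 counts (log2 -2.64) and Ncoa7 38 against 161 (log2 -2.15), both named after their values were seen. Of the cathepsin inhibitors 1 of 11 was expressed: Cst3 (cystatin C), a secreted inhibitor of cysteine cathepsins, had 1425 against 468 counts, 68.0 against 23.1 CPM, and was 2.88-fold higher in the slimming library (log2 1.52, interval 1.37 to 1.68). Of all expressed genes 2.73% were at least 2-fold higher. Serpinb6a, below 10 CPM and named after its values were seen, went the other way. It had 6 against 109 counts (log2 -4.16, interval -5.74 to -3.1).

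**Figure D5:**
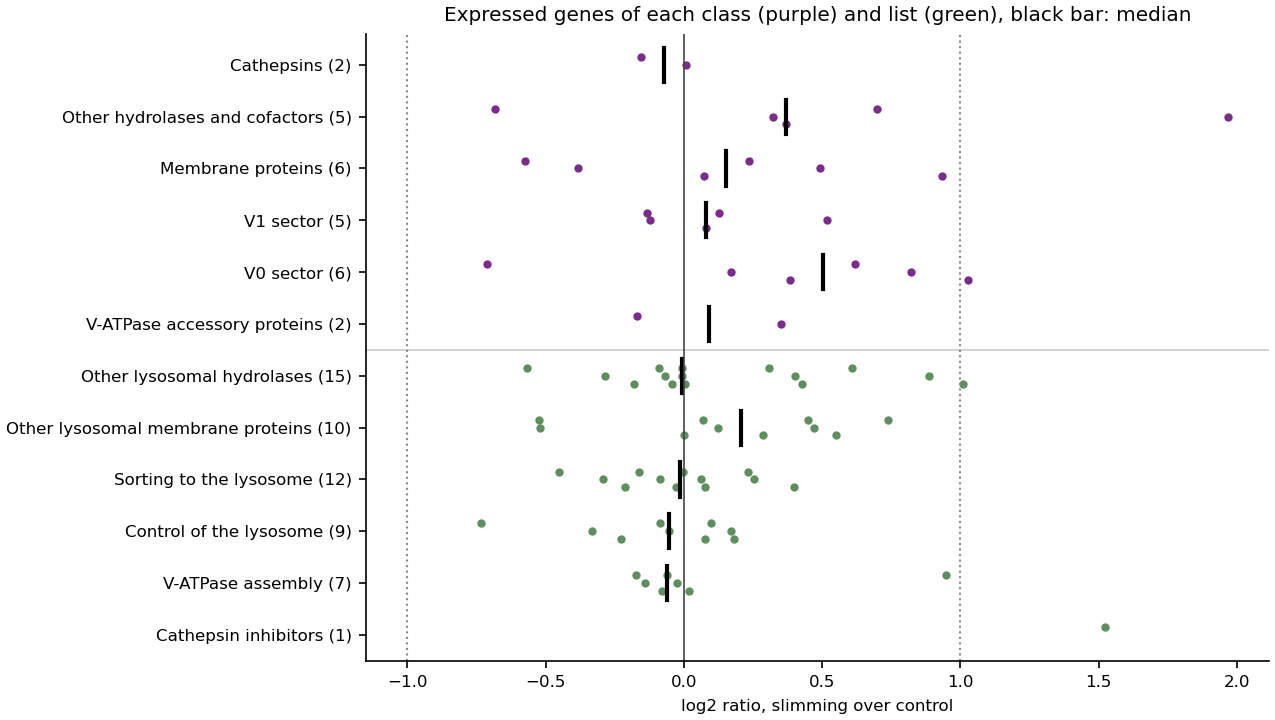
The log2 ratio of each expressed gene (points) by class of members (purple) and by list of other lysosomal genes (green), with the number of genes in brackets, a black bar at the median and dotted lines at 2-fold. The V0 sector has the highest median of the classes at 0.50, and the list of other membrane proteins has the highest of the lists with several genes at 0.21.

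The regulators of the lysosome differed little. In that list 4 of 9 expressed genes were above equality with a median of -0.05 (0.10 over the 15 genes that reached 1 CPM), and Ywhaz, a 14-3-3 protein, and Flcn, which acts on the Rag GTPases, had the largest differences at -0.73 and -0.33. The following were picked after their values were seen. Tfe3 was the expressed factor of its family, with 133 against 153 CPM (log2 -0.23, interval -0.30 to -0.15), while Mitf had 72 against 51 counts, Tfec 21 against 4 and Tfeb 0 against 1. Rragc, a Rag GTPase that recruits mTORC1 and TFE3 to the lysosome, was abundant at 2178 against 1882 CPM (log2 0.18).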

How the data were processed

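The authors deposited raw read counts per Ensembl gene, with slimming as the first and control as the second value, as the file headers say. Reads came from a SOLiD 4 instrument after oligo(dT) priming and 18 and 14 PCR cycles, per the labels' protocols and the genome build was mm9, per the submitters' processing notes. No aligner, counter or strand setting is stated there or in the labels. The authors also deposited log2 ratios, a score (z-score) per gene, and p-values and q-values computed from the reads of this single pair of libraries. Their scaled log2 ratio equals scaling by total count with 0 replaced by 0.5 (largest gap 8.0e-15).

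Blank counts (18210 genes) were read as no count. Symbols came from GENCODE vM21 by identifier, for 16913 of 18017 genes with counts. Ratios were computed after TMM scaling (edgeR 4.0.16, R 4.3.3; factors 1.01 and 0.989) with 0.5 added to each count, and 95% intervals come from exact (Clopper-Pearson) limits on the share of a gene's counts that was from slimming. CPM uses total counts. Shared exons and copies (blastn 2.17.0, at least 95% identity over 100 bases) were read from GENCODE vM21, an annotation of GRCm38. Python 3.11.15, numpy 2.4.6, scipy 1.17.1, pandas 2.3.3 and matplotlib 3.10.9 were used, and the ratio and interval were tested on simulated data. All members are named; other lists give their expressed genes past 2-fold and the 2 largest differences, marker lists their 3 most abundant genes and those at 0 in 1 library with at least 20 counts in the other. Promoter sequences were printed for their E-boxes and not, as planned, for the largest differences. Protein identity was not computed. Members and lists were chosen with earlier results of these data known. Alternatives were other scalings, added counts, filters, limits and removal of the length trend.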

Additional observations from a re-analysis of the deposited data

How the results depend on the processing

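Under scaling by total count, DESeq2 size factors (DESeq2 1.42.0) and 1 added to each count, 7.69% of expressed members stayed past 2-fold. That share became 3.85% with the length trend removed (Neu1 remaining, beside 4.20% of all expressed genes) and 3.85% when the whole counting interval had to lie beyond 2-fold. It was 13.2% of 38 members at a filter of 1 CPM, 0 of 17 at 30 CPM (0.0%), 27.1% of 48 with no filter and 30.8% at a 1.5-fold limit. For all expressed genes the share of 4.67% became 18.4%, 2.18%, 38.6% and 17.5% under the same last 4 settings, and 2.36% with whole intervals. Without members that share exons or have a near-identical copy, chosen after seeing the data, the members' share was 14.3% of 14, with a median of 0.15. That exclusion was not run for all expressed genes, so this share has no background beside it. The members' median ranged from 0.08 to 0.23 over the settings run. The cathepsin median moved from -0.07 to -0.21 with no filter, since 5 more genes at low counts entered. The medians of some classes and lists changed sign: membrane proteins from 0.15 to -0.15 (4 genes) and accessory proteins from 0.09 to -0.17 (1 gene) at 30 CPM, and the regulators from -0.05 to 0.10 at 1 CPM and 0.08 with no filter. The sorting list went from -0.01 to 0.02 by total count, 0.01 with the length trend removed and 0.02 at 30 CPM. Among single members signs changed for Ctsd (0.01 to -0.06) and Atp6v1g1 (0.05 to -0.18), both with the length trend removed. No median was taken for the cathepsin inhibitors, with 1 expressed gene. No paired analysis was possible because each group is 1 pooled library. Depth limits the 22 members below 10 CPM most, and leaving out a replicate was not possible.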
